A study of Homo sapiens with 6 samples.

Results

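The genes described are the cystine, cationic and large neutral amino acid transporters of the SLC7 family together with SLC3A2, the heavy chain that several of them need. They were taken by gene symbol: SLC7A11, SLC3A2, SLC7A1, SLC7A2, SLC7A5, SLC7A6, SLC7A7 and SLC7A8, 8 of the 62710 genes in the count table. All 8 passed the filter on low counts and were tested among 16753 genes, although SLC7A7 had only 87 counts over all libraries. The study compared HCT116 cells, a human colon cancer line, that carry a scrambled shRNA (sh-NC) with HCT116 cells that carry an shRNA against IGF2BP3 (sh-IGF2BP3), with 3 libraries of total RNA in each group. Both lines were infected with lentivirus and selected with puromycin, a single shRNA sequence was used, and the labels give no other difference and do not say that the libraries of a group came from separate cultures. P-values therefore measure only the spread between these libraries, which may be technical. The paper describes the sequenced control and knockdown cells as pairs. The labels give only replicate numbers and do not say which libraries belong together, and the main test was unpaired. In bulk RNA, fewer cells that express a gene and less RNA of it per cell cannot be told apart.

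SLC7 proteins exchange or import amino acids across the plasma membrane. SLC7A5, SLC7A6, SLC7A7, SLC7A8 and SLC7A11 are light chains, which reach the cell surface bound by a disulfide bond to the glycoprotein SLC3A2 (4F2hc, CD98). SLC7A11 (xCT) brings in cystine in exchange for glutamate, and the cysteine made from it feeds glutathione, the cofactor that GPX4 uses to reduce lipid peroxides and so to hold back ferroptosis. SLC7A1 and SLC7A2 (CAT1 and CAT2) belong to the other branch, carry arginine, lysine and ornithine, and work without a heavy chain. The transcription factors ATF4 and NRF2 are known to raise SLC7A11, and ATF4 also raises SLC3A2, SLC7A5 and SLC7A1 when amino acids are short.

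The oligonucleotides that define the groups and the part of SLC7A11 that the study followed by PCR are shown first. The shRNA sequences are 19 bases long, and neither was found on either strand in the 89 GENCODE transcripts of the 8 members.
sh-IGF2BP3: ggctcagggaagaatttat
sh-NC: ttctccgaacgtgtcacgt

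The PCR primers for SLC7A11 lie in the coding sequence of transcript ENST00000280612.9, which runs on the minus strand of GRCh38. The forward primer lies in exon 8 of 12 (chr4:138183205-138183226) and the reverse primer in exon 9 (chr4:138182310-138182331), so the product of 109 bases spans an exon junction.
SLC7A11 forward primer: acggtggtgtgtttgctgtctc
SLC7A11 reverse primer: gctggtagaggagtgtgcttgc

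The counts came to between 16146718 and 23576469 per library. IGF2BP3 was at 70.3 to 90.3 CPM (counts scaled to library size with edgeR's TMM factors) in sh-NC and at 52.3 to 60.2 CPM in sh-IGF2BP3 libraries, a log2 fold change of -0.54 (adjusted p = 0.126, edgeR). Once trends with GC content and length were removed it was -0.22 with overlapping groups (adjusted p = 0.680, edgeR). Of 11 colon epithelial markers, EPCAM, CDH1, KRT8, KRT18, KRT19 and the intestinal factor CDX2 (12.9 and 19.5 CPM) were expressed. CDH17 had 90 counts over all 6 libraries, and CDX1, VIL1, LGALS4 and CEACAM5 had at most 9. Of 8 markers of blood, endothelial and fibroblast cells, 4 were tested, COL1A2 had 0 counts, PTPRC 1, and the summed level of the list was 30.2 to 52.0 CPM in sh-NC and 32.1 to 63.4 CPM in sh-IGF2BP3 libraries, most of it COL1A1. Across the tested genes, log2 fold changes rose with GC content (Spearman correlation 0.611 over 16236 genes, which are not independent and share the same libraries). Each library has its own slope, from -0.23 to -0.05 log2 units per 10 percentage points of GC in sh-NC and from -0.01 to 0.35 in sh-IGF2BP3. The slopes thus moved with the group, and their part in the results was not tested directly. Removing such trends can also take away part of a real group difference, so neither set of values was taken as the truer. Log2 fold changes of the members and named genes are also given with these trends removed (GC and length correction), while the FPKM ratios and shares are uncorrected.

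To place the members in relation to each other, the deposited FPKM values were compared. These are counts scaled by library total and by a fixed length per gene, which can differ from the length of a transcript. That length was 6392 bases for SLC3A2 against 2161 for its principal transcript, but 4764 against 4537 for SLC7A5. The FPKM order of the members and the ratios between them therefore depend on the lengths used. SLC7A5 (LAT1), the importer of leucine and other large neutral amino acids, was the most abundant at 238 ± 60.3 FPKM in sh-NC and 269 ± 55.0 FPKM in sh-IGF2BP3 (SD, n = 3). SLC3A2 followed at 52.3 ± 7.23 and 57.1 ± 15.2 FPKM, and SLC7A1 at 47.6 ± 4.96 and 38.5 ± 7.01 FPKM (SD, n = 3). The sh-NC ranges of SLC3A2 and SLC7A1 overlapped, but SLC3A2 was the higher of the pair in each of the 6 libraries.

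SLC7A11 came next with 21.7 ± 3.29 FPKM in sh-NC and 10.3 ± 0.579 FPKM in sh-IGF2BP3 (SD, n = 3). SLC7A6 (y+LAT2) and SLC7A2 had 7.36 ± 0.227 and 7.19 ± 2.36 FPKM in sh-NC and could not be ordered. SLC7A8 (LAT2) stood at 1.96 ± 0.349 FPKM, and SLC7A7 (y+LAT1), the exchanger of cationic for neutral amino acids that is best known from intestine and kidney, at 0.174 ± 0.0773 FPKM (SD, n = 3). In sh-IGF2BP3 libraries SLC7A11 kept its place, between SLC7A1 at 38.5 FPKM and SLC7A6 at 7.57 ± 0.375 FPKM (SD, n = 3).

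**Figure D1:**
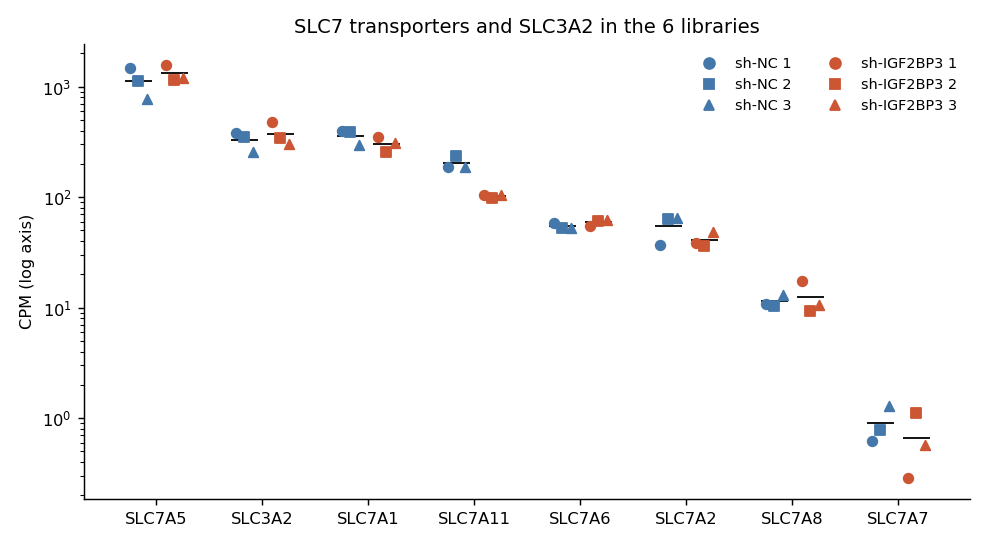
CPM of the 8 members (log axis) in each library, sh-NC in blue and sh-IGF2BP3 in red, with the replicate number given by the symbol and the group mean by a line. The 3 sh-IGF2BP3 libraries of SLC7A11, at 98.6 to 104 CPM, lie below its 3 sh-NC libraries, at 187 to 236 CPM, and the groups of every other member overlap.

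With the study's thresholds, an adjusted p under 0.05 and a fold change above 1.5, edgeR's quasi-likelihood test called 0 of the 8 members higher and 0 lower in sh-IGF2BP3, as it did for all genes (0% in either direction). At an unadjusted p under 0.05, SLC7A11 was lower and no member was higher, against 8.54% of all tested genes lower and 13.6% higher. Among the 8, SLC7A11 alone had groups without overlap, against 11% of all tested genes without overlap and lower and 13.2% without overlap and higher. DESeq2 called SLC7A11 lower and none of the other 6 members to which it gave an adjusted p, SLC7A7 having none, against 1.18% of the genes it tested called lower and 4.26% higher. SLC7A11 was also among the genes the study took forward with the help of these same libraries, so its place here is not independent evidence. Over the 8 members the median log2 fold change was -0.06, with 4 above 0 and 4 below, beside -0.014 over all genes tested.

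SLC7A11 (ENSG00000151012; chr4:138164097-138242349, minus strand) is the light chain of the cystine and glutamate exchanger. Its raw counts were 3312, 5717 and 3694 in sh-NC 1, 2 and 3, against 1823, 1508 and 1830 in sh-IGF2BP3 1, 2 and 3. As CPM these came to 187, 236 and 189 for the sh-NC libraries, against 104, 98.6 and 104 for the others. The 3 sh-IGF2BP3 libraries lay close together and below every sh-NC library, and the ratio of their mean to the sh-NC mean was 0.501. The log2 fold change was -0.996 (standard error 0.183, 95% interval -1.38 to -0.61), and its adjusted p over all tested genes was 0.103 with edgeR and 0.000518 with DESeq2. Leaving out sh-NC 1 lowered the edgeR adjusted p to 0.00273, and leaving out sh-IGF2BP3 3 lowered it to 0.0446. Without sh-NC 1, 985 of 17379 tested genes were called lower and 1739 higher. Without sh-IGF2BP3 3, 14 of 17399 were called lower and 214 higher.

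The GC content of the longest SLC7A11 transcript is 35.4%, the lowest of the members. The 898 tested genes within 2 percentage points of this value, SLC7A11 included, had a median log2 fold change of -0.35, against -0.996 for SLC7A11. After removal of each library's trends with GC content and gene length, SLC7A11 had a log2 fold change of -0.57 (95% interval -0.94 to -0.20, adjusted p = 0.415, edgeR). On that scale the log2 CPM values were 7.55, 7.596 and 7.20 in sh-NC 1, 2 and 3, against 7.10, 6.79 and 6.78 in sh-IGF2BP3 1, 2 and 3, still without overlap. With the trends of the principal transcript removed in place of these, the log2 fold change was -0.52 (95% interval -0.90 to -0.15, adjusted p = 0.417, edgeR), and sh-NC 3 at 7.130 and sh-IGF2BP3 1 at 7.127 were nearly level.

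**Figure D2:**
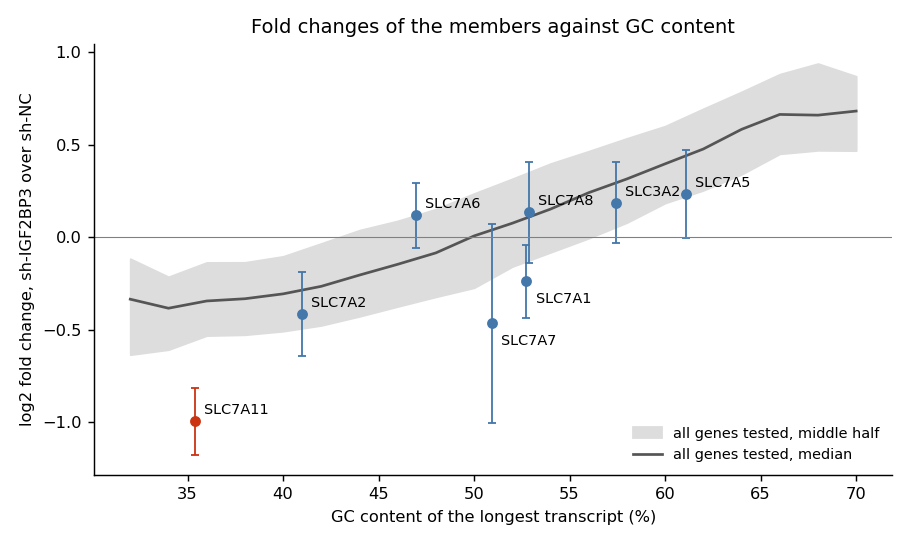
Log2 fold change of each member (points, with standard error bars) against the GC content of its longest transcript, over the median (line) and the interquartile range (grey) of all tested genes in bins of GC content. SLC7A11, at 35.4% GC and -0.996, lies below the grey range, as do SLC7A1 at -0.24 and SLC7A7 at -0.47, and SLC7A6, at 47.0% GC and 0.12, lies above the line at the edge of that range.

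The antisense gene SLC7A11-AS1 (chr4:138057464-138178177) shares 14081 bases of genomic span with SLC7A11. Its counts were 69, 117 and 64 in sh-NC 1, 2 and 3, against 33, 24 and 43 in sh-IGF2BP3 1, 2 and 3, far fewer than those of SLC7A11. The use of strand is not given in the sources used here, so reads of this pair cannot be told apart with certainty, and its log2 fold change of -1.02 (adjusted p = 0.126, edgeR), or -0.75 after GC and length correction, is no independent value.

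SLC3A2 (ENSG00000168003; chr11:62856004-62888880, plus strand) is the heavy chain that carries SLC7A11 to the membrane. It was at 380, 349 and 257 CPM in sh-NC 1, 2 and 3, against 475, 345 and 302 CPM in sh-IGF2BP3 1, 2 and 3. The groups overlapped, and the highest value belonged to sh-IGF2BP3 1. The log2 fold change was 0.19 (standard error 0.218, 95% interval -0.28 to 0.65, adjusted p = 0.637, edgeR), and turned to -0.07 after GC and length correction and to -0.02 without sh-IGF2BP3 1. The uncorrected fold change of SLC7A11 lies outside this interval. After GC and length correction that of SLC7A11, -0.57, lies outside the interval of SLC3A2, -0.49 to 0.36. With the principal transcript's trends removed that of SLC7A11, -0.52, lies inside the interval of SLC3A2, -0.55 to 0.23. A value set beside an interval is no test of a difference, and the ratios within libraries are given below.

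SLC7A5 (ENSG00000103257; chr16:87830023-87869507, minus strand), the partner of SLC3A2 in the leucine transporter LAT1, had 1470, 1120 and 765 CPM in sh-NC 1, 2 and 3, against 1577, 1155 and 1205 CPM in sh-IGF2BP3 1, 2 and 3. The groups overlapped, and the sh-NC libraries alone spanned almost the whole range. Its log2 fold change was 0.23 (95% interval -0.27 to 0.74, adjusted p = 0.586, edgeR), -0.18 after GC and length correction and -0.005 without sh-NC 3. The pseudogenes SLC7A5P1 and SLC7A5P2 resemble SLC7A5 and had 0 counts in every library, and how reads shared with them were counted is not given in the sources used here.

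SLC7A6 (ENSG00000103064; chr16:68264516-68301823, plus strand), which with SLC3A2 exports arginine in exchange for glutamine, was at 58.0, 52.8 and 52.7 CPM in sh-NC 1, 2 and 3, against 54.8, 60.1 and 62.5 CPM in sh-IGF2BP3 1, 2 and 3. The libraries lay close together and overlapped, with an SD of 3.03 CPM in sh-NC and 3.96 CPM in sh-IGF2BP3. The log2 fold change was 0.12 (95% interval -0.25 to 0.49, adjusted p = 0.719, edgeR) and 0.27 after GC and length correction. SLC7A6OS, which overlaps it on the opposite strand over 17321 bases, had 154 to 232 counts per library against 919 to 1278 for SLC7A6.

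SLC7A8 (ENSG00000092068; chr14:23125295-23183674, minus strand), the neutral amino acid exchanger LAT2, had 10.8, 10.4 and 12.9 CPM in sh-NC 1, 2 and 3, against 17.6, 9.29 and 10.6 CPM in sh-IGF2BP3 1, 2 and 3. Only sh-IGF2BP3 1 lay above the sh-NC libraries. The log2 fold change was 0.13 (95% interval -0.44 to 0.71, adjusted p = 0.797, edgeR), or 0.05 after GC and length correction and -0.19 without that library.

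SLC7A7 (ENSG00000155465; chr14:22773222-22829820, minus strand) had 11, 19 and 25 counts in sh-NC 1, 2 and 3, against 5, 17 and 10 counts in sh-IGF2BP3 1, 2 and 3. At this depth a difference was not detectable, since the 95% interval of its log2 fold change of -0.47 ran from -1.61 to 0.67 (adjusted p = 0.631, edgeR), and the corrected value was -0.46.

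SLC7A1 (ENSG00000139514; chr13:29509414-29595688, minus strand), the main arginine importer of dividing cells, had 393, 387 and 296 CPM in sh-NC 1, 2 and 3, against 350, 256 and 306 CPM in sh-IGF2BP3 1, 2 and 3. The upper pair of sh-NC libraries lay above all sh-IGF2BP3 libraries, but sh-NC 3 lay among them. The log2 fold change was -0.24 (95% interval -0.66 to 0.18, adjusted p = 0.491, edgeR), and -0.29 after GC and length correction.

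SLC7A2 (ENSG00000003989; chr8:17497088-17570573, plus strand), which encodes the inducible cationic transporters CAT2A and CAT2B, had 37.0, 63.3 and 64.0 CPM in sh-NC 1, 2 and 3, against 38.7, 36.04 and 48.4 CPM in sh-IGF2BP3 1, 2 and 3. Here sh-NC 1 stood with the sh-IGF2BP3 libraries and not with its own group. The log2 fold change was -0.42 (95% interval -0.89 to 0.06, adjusted p = 0.290, edgeR). Without sh-NC 1 it was -0.63 and passed both thresholds (adjusted p = 0.0384, edgeR). In that setting 985 of 17379 tested genes were called lower and 1739 higher. With all 6 libraries and the GC and length trends removed, the log2 fold change of SLC7A2 was -0.09 (adjusted p = 0.871, edgeR). Its GC content, 41.0%, is the second lowest among the members, and the 2693 tested genes within 2 percentage points had a median log2 fold change of -0.29.

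**Figure D3:**
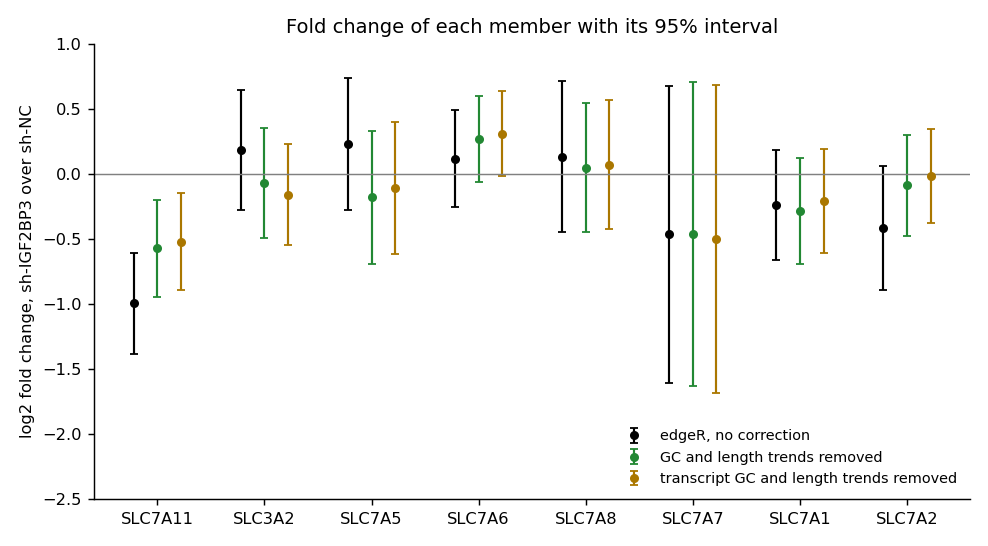
Log2 fold change of each member, sh-IGF2BP3 over sh-NC, with its 95% interval, from edgeR without correction (black), after GC and length correction (green) and after correction by the principal transcript (brown). The 3 intervals of SLC7A11 lie below 0, from -1.38 to -0.61, from -0.94 to -0.20 and from -0.90 to -0.15, and those of the other 7 members include 0. Intervals are per gene and not adjusted for the number of genes tested. The adjusted p of SLC7A11 was 0.103, 0.415 and 0.417 (edgeR). Its corrected log2 fold changes, -0.57 and -0.52, fall short of the threshold of 0.585 in size.

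To compare SLC7A11 with its relatives, its counts were divided by those of each other member within a library, a ratio that needs no scaling between libraries. Per count of SLC3A2, SLC7A11 had 0.492, 0.677 and 0.733 counts in sh-NC 1, 2 and 3, against 0.220, 0.286 and 0.344 counts in sh-IGF2BP3 1, 2 and 3. The log2 ratio was -0.68 ± 0.304 in sh-NC and -1.84 ± 0.325 in sh-IGF2BP3 (SD, n = 3), a difference of -1.17 (exact permutation, two-sided p = 0.1, the lowest value that 3 libraries a group can give). After GC and length correction this difference was -0.50, and with the principal transcript's trends removed it was -0.35, each without overlap.

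The ratio to SLC7A5 differed by -1.26, that to SLC7A6 by -1.10, to SLC7A8 by -1.07, to SLC7A1 by -0.75 and to SLC7A2 by -0.60 on the log2 scale. Each of these 5 set every sh-IGF2BP3 library below every sh-NC library (exact permutation, two-sided p = 0.1 each). Adjustment over the 7 ratios can only raise these values, so none could pass 0.05. The 7 ratios share the SLC7A11 counts, whose groups did not overlap by themselves, so they are not separate results. How many other genes would give such ratios was not counted. The ratio to the scarce SLC7A7 differed by -0.39 and overlapped (exact p = 0.7).

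After GC and length correction, the ratios to SLC3A2, SLC7A1 and SLC7A6 remained without overlap, with differences of -0.50, -0.28 and -0.84. Those to SLC7A5, SLC7A8 and SLC7A2 then overlapped, at -0.40 (exact p = 0.2), -0.57 (exact p = 0.2) and -0.49 (exact p = 0.3). SLC7A6 was thus the relative from which SLC7A11 parted most on this scale.

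**Figure D4:**
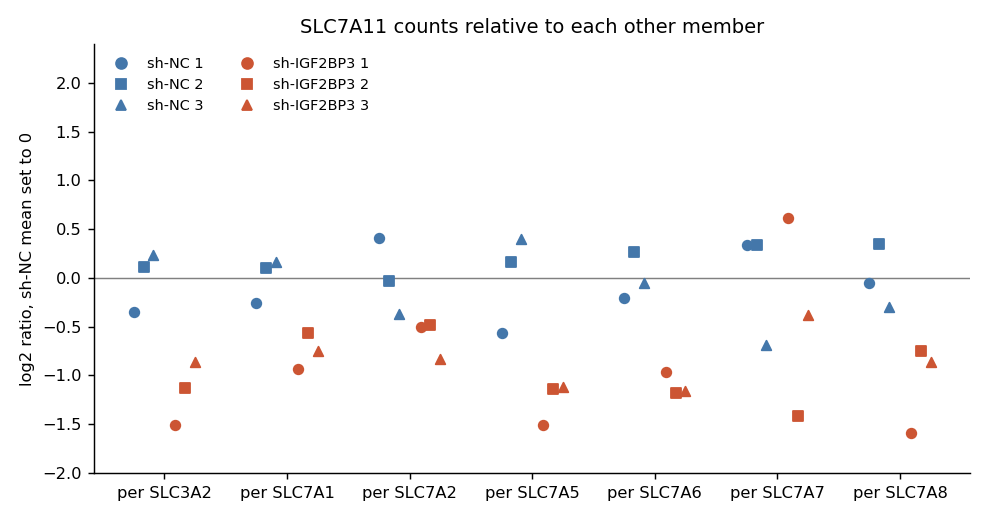
Log2 ratio of SLC7A11 counts to the counts of each other member in each library, with the sh-NC mean of each ratio set to 0. The sh-IGF2BP3 libraries (red) lie below the sh-NC libraries (blue) for 6 of the 7 relatives, the exception being SLC7A7, which had 5 to 25 counts per library.

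The balance between light chains and the heavy chain was then compared on the FPKM scale, where the size of each ratio depends on the gene lengths used. Per FPKM of SLC3A2, the light chains SLC7A5, SLC7A6, SLC7A7, SLC7A8, SLC7A10 and SLC7A11 together had 5.68, 4.92 and 4.71 FPKM in sh-NC 1, 2 and 3, against 4.74, 4.86 and 5.79 FPKM in sh-IGF2BP3 1, 2 and 3. The means were 5.10 ± 0.511 and 5.13 ± 0.576 (SD, n = 3; two-sided exact permutation test, p = 0.9). The groups overlapped, and SLC7A5 made up most of the total.

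SLC7A11 held 5.74%, 9.12% and 10.3% of the summed light-chain FPKM in sh-NC 1, 2 and 3, against 3.07%, 3.90% and 3.93% in sh-IGF2BP3 1, 2 and 3. SLC7A5 held 91.4%, 87.6% and 84.7% in sh-NC and 94.0%, 92.4% and 92.4% in sh-IGF2BP3. The groups did not overlap for either share, and for both of them sh-NC 1 was the sh-NC library nearest to sh-IGF2BP3. These shares belong to the same total, so a rise of the SLC7A5 share is not separate from a fall of the SLC7A11 share. The shares are uncorrected, and the GC content of SLC7A5 and SLC7A11 is 61.1% and 35.4%. After GC and length correction the ratio of SLC7A11 to SLC7A5 overlapped (-0.40 on the log2 scale, exact permutation, p = 0.2). Per FPKM of SLC3A2 alone, SLC7A11 went from 0.420 ± 0.0836 to 0.188 ± 0.0412 (SD, n = 3; exact permutation test, p = 0.1).

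**Figure D5:**
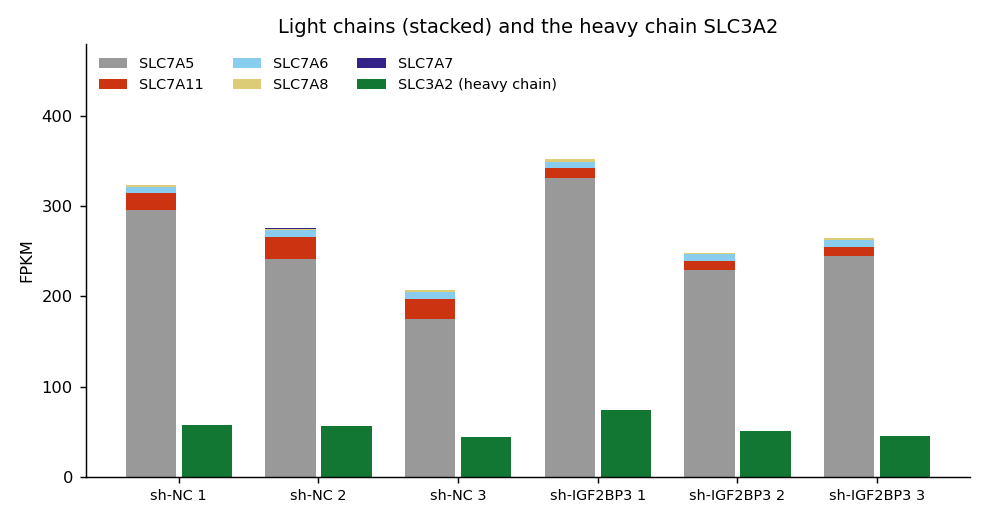
FPKM of the light chains (stacked bars) beside FPKM of the heavy chain SLC3A2 (green) in each library. SLC7A5 fills 84.7% to 94.0% of the summed light-chain FPKM, and the SLC7A11 segment (red) is 18.6 to 25.1 FPKM in sh-NC and 9.68 to 10.8 FPKM in sh-IGF2BP3.

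The balance of the cationic transporters overlapped between the groups. SLC7A1 had 10.9, 6.29 and 4.75 FPKM per FPKM of SLC7A2 in sh-NC 1, 2 and 3, against 9.29, 7.31 and 6.49 in sh-IGF2BP3 1, 2 and 3. The means were 7.32 ± 3.22 and 7.70 ± 1.44 (SD, n = 3; exact permutation, two-sided p = 0.8), and the largest spread was among the sh-NC libraries.

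The other 7 genes of the SLC7 and SLC3 families did not pass the filter on low counts. SLC7A3 and SLC7A13 had 0 counts in every library, which allows up to 0.124 to 0.196 CPM per library for counting error alone (3 counts). SLC7A4 and SLC7A14 had 1 count each over all libraries, SLC3A1, the heavy chain of the renal cystine transporter, had 12, and SLC7A10 had 20. SLC7A9, the light chain that pairs with SLC3A1, had 10, 12 and 13 counts in sh-NC 1, 2 and 3, against 2, 4 and 6 counts in sh-IGF2BP3 1, 2 and 3. The groups of SLC7A9 did not overlap, at 0.50 to 0.66 CPM in sh-NC and 0.11 to 0.34 CPM in sh-IGF2BP3. It was not tested, and 11% of all tested genes were lower without overlap. This pair, another cystine transporter of the family, thus rested on few counts.

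The genes most like SLC7A11 in pattern were sought among 9498 other protein-coding genes with a mean of at least 10 CPM, by the root mean square difference of log2 CPM over the 6 libraries after centring each gene. The nearest were ZNF525 (0.137), RPS6KA5 (0.143), KIFAP3 (0.150), TTC21B (0.163) and RANBP17 (0.171). Their log2 fold changes ran from -1.003 to -0.73, or from -0.67 to -0.28 after GC and length correction. The match itself used uncorrected values. Their GC content ran from 37.8% to 42.2%, below the median of 48.7% over tested genes. No relative stood near, as the closest were SLC7A2 in place 1615 and SLC7A1 in place 1917, with SLC7A5 in place 6764.

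Promoter windows of RefSeq (GRCh38.p14, around each gene start) were matched for SLC3A2, SLC7A1, SLC7A5, SLC7A6, SLC7A7 and SLC7A8, and not for SLC7A11 and SLC7A2. They were searched on both strands for the C/EBP-ATF response element (TGATGNAAN), bound by ATF4, and for the antioxidant response element (TGACNNNGC), bound by NRF2, since these are the factors best known for this family. At least 1 window held the first for 4.45% of 27305 genes and the second for 16.06%. The second overlaps the letters of AP-1 sites (TGACTCA) and of CREB sites (TGACG). SLC3A2 and SLC7A1 held both, and SLC7A5, SLC7A6 and SLC7A7 the second alone. The sites of SLC3A2 and SLC7A1 follow, read on the strand that holds the motif, with the motif in capitals.
SLC3A2, C/EBP-ATF, chr11:62881735-62881743, minus strand: ggagcTGATGTAAGgagtcct
SLC7A1, C/EBP-ATF, chr13:29595673-29595681, minus strand: gcactgcTGATGAAACctggcgc
SLC3A2, antioxidant, chr11:62881662-62881670, plus strand: gggtgggTGACTCAGCgtcctcc
SLC7A1, antioxidant, chr13:29595765-29595773, minus strand: ccggcggTGACGCGGCcgagcgg

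A match describes letters only. The regulators were measured in the same libraries, as a list of 14 genes that act on SLC7A11 or its heavy chain, all of which were tested. ATF4 had 433 CPM in sh-NC and 559 CPM in sh-IGF2BP3, a log2 fold change of 0.37 (unadjusted p = 0.102, edgeR), and NFE2L2, which encodes NRF2, had 170 and 136 CPM and a log2 fold change of -0.32 (unadjusted p = 0.156, edgeR), and after correction these were 0.04 and -0.09. This pair was named after its values were seen. No gene of the list was called, with 2 higher and 1 lower at an unadjusted p under 0.05 (edgeR), beside 13.6% and 8.54% of all genes tested. The 3 with the smallest p were CD44, whose variant form holds SLC7A11 at the membrane, at -0.58, KEAP1, the adaptor that degrades NRF2, at 0.70, and BAP1, a deubiquitinase known to repress SLC7A11, at 0.45, each as a log2 fold change with an adjusted p of 0.136 to 0.196 (edgeR). After GC and length correction, these were -0.36, 0.32 and 0.08, and the list's median went from 0.23 to 0.06.

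Other plasma membrane transporters of amino acids were described as a list of 24 genes of the families SLC1, SLC6, SLC16, SLC36, SLC38 and SLC43, of which 18 were tested. The median log2 fold change was -0.30, or -0.19 after GC and length correction, with 6 genes above 0 and 12 below. None was called by edgeR, and at an unadjusted p under 0.05 there were 2 higher and 4 lower, beside 13.6% and 8.54% of all genes tested. The 3 with the smallest p were the glutamate transporter genes SLC1A3 at -0.75 (adjusted p = 0.103), SLC1A2 at -1.85 (adjusted p = 0.126) from at most 1.84 CPM, and SLC1A1 at -0.87 (adjusted p = 0.132, edgeR). After GC and length correction these were -0.38, -1.40 and -0.70, with adjusted p of 0.441 to 0.471 (edgeR). SLC1A3 was at 62.6 to 83.2 CPM in sh-NC and 38.0 to 46.2 CPM in sh-IGF2BP3. It was the only gene of the list that DESeq2 called (lower, adjusted p = 0.0195), beside 1.18% of the genes it tested called lower and 4.26% higher.

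Inside the cell, cystine and cationic amino acids also cross the lysosomal membrane, and all 5 genes listed for that step were tested. None was called by edgeR, 2 were higher and 1 lower at an unadjusted p under 0.05 (13.6% and 8.54% of all genes), and the median log2 fold change was 0.17, or -0.04 after correction. SLC38A9, the arginine sensor of the lysosome, was at 15.1, 18.3 and 19.9 CPM in sh-NC 1, 2 and 3, against 10.01, 10.7 and 11.02 CPM in sh-IGF2BP3 1, 2 and 3. The groups did not overlap, and the log2 fold change was -0.75 (adjusted p = 0.116 with edgeR, 0.0333 with DESeq2), or -0.34 after GC and length correction (adjusted p = 0.508, edgeR). DESeq2 called this gene alone in the list, beside 1.18% of the genes it tested called lower and 4.26% higher. MFSD12, needed for cysteine import into the organelle, and SLC66A1, which exports cationic amino acids, had log2 fold changes of 0.57 and 0.63 (adjusted p = 0.133 and 0.169, edgeR), with the groups apart, and -0.03 and 0.04 after GC and length correction. CTNS, the cystine exporter, was at 0.07, or -0.17 after correction, and was named after its values were seen.

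The use of the imported cystine was followed in 12 genes of glutathione synthesis and cysteine supply, of which 11 were tested, and CBS, with 4 counts in all, has a near-identical copy in the reference and is uncertain. None was called, with 2 higher and 1 lower at an unadjusted p under 0.05 (edgeR), beside 13.6% and 8.54% of all genes tested, and a median log2 fold change of 0.01, or 0.07 after correction. GPX4, the lipid peroxidase, had 98.3, 90.4 and 70.6 CPM in sh-NC 1, 2 and 3, against 159, 146 and 99.5 CPM in sh-IGF2BP3 1, 2 and 3, a log2 fold change of 0.64 (adjusted p = 0.124, edgeR) that was 0.08 after GC and length correction. CTH, which makes cysteine from cystathionine, was at -0.58 (adjusted p = 0.159) and TXN, thioredoxin, at 0.57 (adjusted p = 0.179, edgeR), and after correction they were at -0.46 and 0.69. GCLC and GCLM, the subunits of the enzyme that starts glutathione synthesis, were at -0.07 and -0.06, or 0.17 and 0.24 after correction, and were named after their values were seen.

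The use of arginine, the substrate of SLC7A1 and SLC7A2, was followed in 15 genes, of which 13 were tested. None was called by edgeR, with 6 higher and 0 lower at an unadjusted p under 0.05, beside 13.6% and 8.54% of all genes tested, and the median log2 fold change was 0.25, or 0.12 after GC and length correction. OAZ1, the antizyme that marks ornithine decarboxylase for degradation, was at 232, 185 and 144 CPM in sh-NC 1, 2 and 3, against 451, 438 and 260 CPM in sh-IGF2BP3 1, 2 and 3. The groups did not overlap, with a log2 fold change of 1.03 (adjusted p = 0.103, edgeR), or 0.55 on removal of the trends. NOS3, a nitric oxide synthase, was at 0.95 and ASL, argininosuccinate lyase, at 0.76 (adjusted p = 0.113 and 0.122, edgeR), or 0.49 and 0.43 after correction. DESeq2 called OAZ1 and NOS3 higher (adjusted p = 0.0104 and 0.0364) and no gene of the list lower, beside 4.26% and 1.18% of the genes it tested.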

How the data were processed

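The authors deposited raw counts for each Ensembl gene and FPKM values. On checking, FPKM equalled the count over the library total and a fixed length per gene. The submitters' processing notes name GRCh38 and CASAVA. The aligner, counting tool and use of strand are not given in the sources used here. The count table was tested with edgeR 4.0.16 under R 4.3.3 (filterByExpr, TMM, quasi-likelihood test, two-sided), on group alone, adjusted by Benjamini-Hochberg across the 16753 genes that passed the filter. The thresholds, a fold change of 1.5 and an adjusted p of 0.05, follow the paper's methods. DESeq2 1.42.0 and limma 3.58.1 on log2(FPKM + 1) served as alternatives. Log2 CPM used a prior count of 2. Intervals of fold changes are at 95% for each gene, without adjustment for the number of genes tested. Ratios were compared by exact permutation of the 6 libraries, and shares only by whether the groups overlapped.

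Trends with GC content (longest GENCODE 29 transcript, known for 96.9% of genes tested) and length were estimated per library as splines (5 degrees of freedom) through each gene's departure from its mean, and entered as offsets, with no offset for genes without a value. The scripts were tested on simulated counts in which 200 genes changed. Libraries of a group differed by more than counting noise (chi-square per degree of freedom of at least 16.6), which does not show that they came from separate cultures. They were counted as separate in the tests. Counting intervals and floors cover counting error only. The members, gene lists, motifs and alternatives were chosen with earlier results of these data known. Named genes are the members, other SLC7 and SLC3 genes, and per list those called or, with none called, the 3 with the smallest p.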

Additional observations from a re-analysis of the deposited data

How the results depend on the processing

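The members rest on 3 libraries a group, and SLC7A7 and the untested relatives on few counts. For changed results the cause was not tested. edgeR called 0 genes higher and 0 lower. The counts were 547 and 152 with DESeq2, 687 and 150 with no filter on low counts, 1 and 0 under either RLE normalization or a minimum of 10 counts per library, and 0 and 1 for log2(FPKM + 1) with a mean FPKM of at least 1. With each library left out in turn, 0 to 1739 were higher (1739 without sh-NC 1, 214 without sh-IGF2BP3 3) and 0 to 985 lower (985 and 14 without the same libraries). The remaining settings that kept all 6 libraries called 0. SLC7A11 kept its direction in all 18 alternatives (-1.07 to -0.52) and passed the thresholds in 4: DESeq2 (-0.996), no filter (-0.989, adjusted p = 0.00212, edgeR) and without sh-NC 1 or sh-IGF2BP3 3, in a leave-one-out range of -1.07 to -0.88. Its adjusted p ran from 0.000518 to 0.620.

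With the replicate block, SLC7A11 was at -0.99 (adjusted p = 0.0782, edgeR) and 0 genes were called. The paper speaks of pairs, which may be the same-numbered libraries. Same-numbered libraries did not deviate together (correlations of -0.28, -0.19 and -0.04 across genes), so the main test did not take the numbers as pairs. Such correlations do not show that the libraries were unpaired. SLC3A2 and SLC7A5 changed sign without the trends (-0.068 and -0.18), without the transcript trends (-0.16 and -0.11), without trends but with the block (-0.052 and -0.14) and on leaving out a library (-0.020 to 0.31 and -0.0048 to 0.48). SLC7A8 went from -0.19 to 0.31 on leaving out a library. SLC7A11 per SLC7A7 changed sign with the transcript trends removed (0.019) and on leaving out a library (-0.90 to 0.12). The summed light chains per SLC3A2 differed by 0.03, by -0.16 in CPM, and by -0.30 to 0.32 on leaving out a library.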
